A study of Mus musculus with 32 samples.

Results

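The 40 mitosis genes described here were listed by symbol and found on the array through the transcript accession of each probe, with the brightest probe standing for a gene. All 40 had a probe among the 20659 named genes of the array, and 34 of them were tested, out of 23743 genes and transcripts tested in all. The other 6 members, Cdc25c, Aurkb, Ttk, Bub1, Cenpf and Ncapg, were too dim to be tested in these kidneys. Whole kidneys came from male mice aged 12 to 16 weeks, 1 mouse per 1-colour Agilent array and 4 mice per group. The miR-155-/- mice were of the strain B6.Cg-Mir155tm1.1Rsky/J and came originally from The Jackson Laboratory, and the wild type mice were C57BL/6 from Charles River Laboratories, matched for age and weight. Mice of each genotype were given a single dose of cisplatin at 20 mg/kg, a DNA-crosslinking platinum compound, and kidneys were taken 24, 48 or 72 h later. Saline-injected mice of each genotype formed the 0 h groups. A difference between the genotypes cannot be told apart from a difference between the suppliers' lines, and the deletion itself could not be checked because no probe was named for Mir155.

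Mitosis is the division of a duplicated set of chromosomes between daughter cells. Cyclin B with Cdk1 starts it, Polo and Aurora kinases build the spindle, the spindle checkpoint holds cells until every kinetochore is attached, and the anaphase-promoting complex then destroys cyclins and frees sister chromatids for cytokinesis. Nearly all tubule cells of the adult kidney rest outside the cell cycle, and surviving tubule cells re-enter it when the epithelium regenerates after injury. Many mitotic genes are repressed together by the DREAM complex in resting and p53-arrested cells and activated together by B-Myb and FoxM1, through a cell cycle genes homology region (TTTGAA or TTCGAA) and CCAAT boxes bound by NF-Y.

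Promoter windows of 34 members were in the RefSeq table (build GRCm38.p6), from 250 bases before to 50 bases after each annotated start, and the unmatched members were Ccna2, Cdc25c, Foxm1, Aurkb, Tpx2 and Kif20a. The letters TTTGAA on either strand were in 28 of their 36 windows (77.8%), against 17.9% of all 32851 windows in the table. TTCGAA, which reads the same on both strands and was counted once, was in 3 of 36 windows (8.33%), against 1.56% of all. CCAAT on either strand was in 30 windows (83.3%), against 37.4% of all, and 27 windows (75%) held it together with TTTGAA or TTCGAA, against 7.52% of all. TTTGAA and TTCGAA cannot share letters, while CCAAT can share its last letter with either of them or overlap its own reverse complement, and each match was counted. Among 28 windows of DNA replication genes, TTTGAA was in 4 (14.3%) and CCAAT in 18 (64.3%). Among 60 windows of further mitosis genes outside the 40, TTTGAA was in 33 (55%) and CCAAT in 36 (60%). Birc5, Ccnb1, Cenpe, Mad2l1, Ncaph, Nek2 and Nusap1 had neither TTTGAA nor TTCGAA in these windows. The windows shown are those of the members whose 72 h response differed between the genotypes and that the table holds, with Mad2l1 and Cenpe added after their values were seen because they moved unlike most members. They are Ccnb1 (chr13:100786437-100786736, minus strand), Mad2l1 (chr6:66534971-66535270, plus strand), Cenpe (chr3:135212313-135212612, plus strand), Anln (chr9:22389157-22389456, minus strand), Mki67 (chr7:135716330-135716629, minus strand), Top2a (chr11:99024140-99024439, minus strand) and Ncaph (chr2:127133905-127134204, minus strand), each written 5′ to 3′ on the strand of the gene, and capitals mark these 3 motifs on either strand.
Ccnb1: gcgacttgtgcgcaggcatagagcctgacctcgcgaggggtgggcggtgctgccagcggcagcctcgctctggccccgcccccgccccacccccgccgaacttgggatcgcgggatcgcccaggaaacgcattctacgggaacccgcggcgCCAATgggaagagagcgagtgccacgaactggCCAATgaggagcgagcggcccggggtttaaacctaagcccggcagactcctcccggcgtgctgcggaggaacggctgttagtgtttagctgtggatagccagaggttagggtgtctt
Mad2l1: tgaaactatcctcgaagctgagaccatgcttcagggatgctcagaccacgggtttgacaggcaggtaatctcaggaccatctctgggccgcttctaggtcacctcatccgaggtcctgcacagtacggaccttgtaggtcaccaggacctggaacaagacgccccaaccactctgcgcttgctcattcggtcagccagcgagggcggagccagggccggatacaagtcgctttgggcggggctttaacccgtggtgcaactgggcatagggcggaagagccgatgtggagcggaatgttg
Cenpe: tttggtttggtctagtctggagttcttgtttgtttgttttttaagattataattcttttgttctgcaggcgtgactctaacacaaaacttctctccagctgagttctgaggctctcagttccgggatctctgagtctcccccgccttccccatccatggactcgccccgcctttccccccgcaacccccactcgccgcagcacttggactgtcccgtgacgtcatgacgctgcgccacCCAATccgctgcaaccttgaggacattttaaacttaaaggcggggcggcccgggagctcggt
Anln: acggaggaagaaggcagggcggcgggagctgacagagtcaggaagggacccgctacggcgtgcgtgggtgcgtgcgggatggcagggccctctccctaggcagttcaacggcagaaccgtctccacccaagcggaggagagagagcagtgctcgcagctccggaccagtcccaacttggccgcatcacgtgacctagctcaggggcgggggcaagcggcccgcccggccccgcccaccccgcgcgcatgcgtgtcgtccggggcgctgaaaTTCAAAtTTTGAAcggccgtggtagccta
Mki67: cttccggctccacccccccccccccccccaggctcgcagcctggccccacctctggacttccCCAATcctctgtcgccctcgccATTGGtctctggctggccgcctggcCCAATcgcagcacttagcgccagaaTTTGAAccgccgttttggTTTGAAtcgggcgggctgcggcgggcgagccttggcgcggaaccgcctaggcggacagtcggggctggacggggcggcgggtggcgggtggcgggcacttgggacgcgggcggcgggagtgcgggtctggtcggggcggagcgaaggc
Top2a: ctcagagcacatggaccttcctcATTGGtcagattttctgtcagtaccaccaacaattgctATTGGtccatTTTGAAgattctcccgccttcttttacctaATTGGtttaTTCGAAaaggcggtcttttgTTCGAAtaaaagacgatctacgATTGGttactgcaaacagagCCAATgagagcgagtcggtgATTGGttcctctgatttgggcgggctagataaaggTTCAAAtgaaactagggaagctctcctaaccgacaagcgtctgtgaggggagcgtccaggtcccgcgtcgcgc
Ncaph: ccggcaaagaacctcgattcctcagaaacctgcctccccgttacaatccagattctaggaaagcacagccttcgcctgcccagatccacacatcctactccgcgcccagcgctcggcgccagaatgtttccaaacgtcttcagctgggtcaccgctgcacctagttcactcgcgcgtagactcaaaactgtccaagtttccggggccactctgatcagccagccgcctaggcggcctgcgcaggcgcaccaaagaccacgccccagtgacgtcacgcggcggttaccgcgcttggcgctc
Mki67 held 2 copies of TTTGAA and 3 of CCAAT, and Top2a held 2 of TTTGAA, 2 of TTCGAA and 6 of CCAAT. Anln held TTTGAA on both strands and no CCAAT in the window, Ccnb1 and Cenpe held CCAAT alone, and Mad2l1 and Ncaph held none of these letters. A match is a run of letters and was not shown to be bound in these kidneys.

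Array quality bears on these values as follows. The arrays held 43020 non-control spots, of which 68.8% to 82.2% were well above background. Levels are normalised intensities on a scale that puts the 75th percentile of each array at 1000, so that a level is comparable between arrays for 1 probe and not between probes. The first component of all tested genes took 40.4% of the variance, and on it the miR-155-/- arrays 3 at 24 h (87.8) and 3 at 48 h (121) lay beyond all others. Summed red cell and erythroid markers read 35842 on the first of these, against 4355 to 10678 on the other arrays of its group. On the second they read 124772, against 2395 to 7140. This 48 h array also lay apart from its group on the second component (15.8% of the variance), at 61.4 against -21.6 to -14.4. The miR-155-/- arrays at 24 h lay at 28.0 to 59.6 there. Array 3 of the saline miR-155-/- group carried 976 outlier-flagged spots. The miR-155-/- 72 h arrays all sat at position 4 of their slides and the wild type saline arrays all at position 1, and the part of this in the results was not tested. The 10 kidney markers, among them the uromodulin gene Umod and the proximal transporter gene Slc34a1, all passed the filter on dim probes. Cdkn1a, the p53-induced inhibitor of cyclin-dependent kinases, read 8691, 8550.0, 8824 and 6311 in miR-155-/- kidneys at 72 h and 205, 209, 284 and 239 in saline miR-155-/- kidneys. Cdkn1a in wild type kidneys read 5613, 7788, 7411 and 8589 at 72 h and 249, 262, 297 and 362 after saline, so that every 72 h array of both genotypes stood far above the saline ones.

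In miR-155-/- kidneys most mitosis genes were not called at 24, 48 or 72 h after cisplatin, and at 24 and 48 h the shares called in either direction were near or below those of all features. At 24 h 8 of the 34 tested members fell and 2 rose (adjusted p under 0.05 by limma over all features), where 22.5% of all features fell and 26.6% rose, and at 48 h 6 fell and 5 rose, against 21.1% and 22.7%. By 72 h 2 fell and 9 rose, against 17.5% and 17.7%. In whole tissue, fewer dividing cells and less RNA per dividing cell cannot be told apart. The share of members that rose at 72 h was above that of all features, and it depended on single arrays. The median log2 difference of the members was -0.18 at 24 h, -0.10 at 48 h and 0.33 at 72 h, and that of all features -0.01, -0.05 and -0.02. Without miR-155-/- array 3 at 48 h, 5 members were called at that time in place of 11. The 72 h count of 11 became 7 without saline miR-155-/- array 3 and 6 without miR-155-/- 72 h array 2 or array 3, and it was 20 with miR-155-/- 72 h array 4 and wild type saline array 4 left out together. On slide 1, with miR-155-/- 72 h array 4 and 1 saline array, the median 72 h difference of the members was -0.41, with 28 of 34 below 0. On slide 3, with 1 array of each of these groups, it was 0.88, with 29 of 34 above 0. With normexp background correction in place of the scanner's processed signal, 2, 3 and 6 members were called at the 3 times. Calls over all features fell to 7129, 5164 and 4759 in that setting, against 11663, 10396 and 8364. The median of the members was then -0.24, 0.36 and 0.49, and that of all features -0.11, 0.31 and 0.18.

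In wild type kidneys the called mitosis genes were nearly all lower after cisplatin. At 24 h 15 of the 34 tested members fell and 1 rose, where 17.6% of all features fell and 21% rose. At 48 h 20 fell and 1 rose, against 11.6% and 12.2% of all features. By 72 h 22 fell and 1 rose, against 12.8% and 12.5%. Kif11, counted as lower at all 3 times, was tested only because its wild type saline arrays were above background. The median log2 difference of the members was -0.56 at 24 h, -0.81 at 48 h and -1.02 at 72 h, and that of all features 0.07, 0.00 and 0.03. With normexp 2, 2 and 5 members were called at the 3 times, all lower, while calls over all features fell to 5223, 2961 and 3029, against 9180, 5657 and 6018. The median of the members stayed below that of all features in that setting, at -0.13, -0.58 and -0.74.

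**Figure D1:**
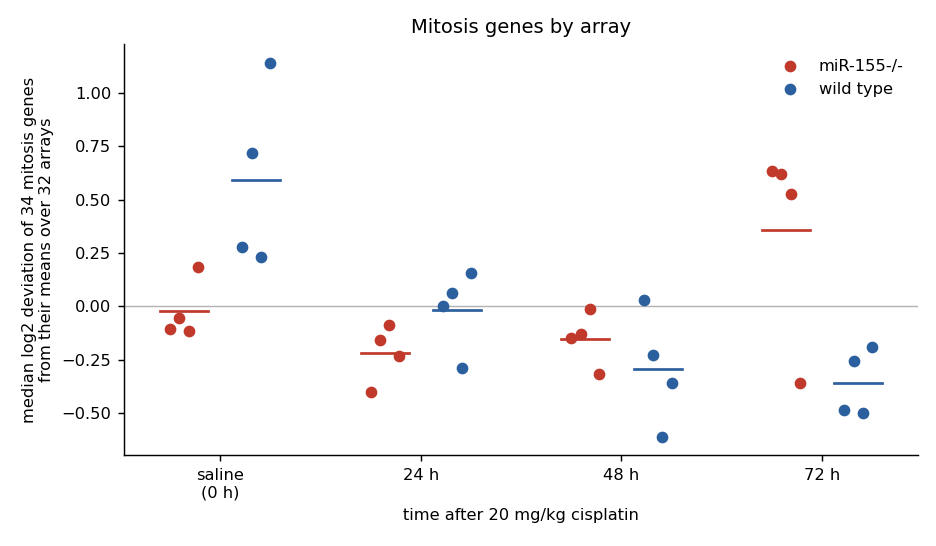
Median log2 deviation of the 34 tested mitosis genes from their own means over the 32 arrays (y axis), by time after cisplatin (x axis), 1 point per array and a bar at each group mean, with miR-155-/- in red left of wild type in blue. Arrays 1 to 3 of the miR-155-/- 72 h group lie between 0.53 and 0.63 and array 4 at -0.36, and the wild type saline arrays lie between 0.23 and 1.14, above every treated wild type array.

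The plot of array medians shows the same by array. The median member of an array deviated from its own mean over all arrays by -0.11 to 0.18 in saline miR-155-/- kidneys, by -0.40 to -0.09 at 24 h and by -0.32 to -0.01 at 48 h. At 72 h 3 miR-155-/- arrays lay between 0.53 and 0.63, and array 4 lay at -0.36, within the range of the wild type 72 h arrays. Wild type kidneys gave 0.23 to 1.14 after saline, -0.29 to 0.16 at 24 h, -0.61 to 0.03 at 48 h and -0.50 to -0.19 at 72 h. On miR-155-/- 72 h arrays 1 to 3, 31 to 33 of the 34 members stood above their own means, against 7 on array 4.

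At 72 h the calls against saline differed between the genotypes. The saline groups themselves lay apart, with a median log2 difference of the members of -0.68 (miR-155-/- minus wild type) and 0 members called. Of the 9 members that rose in miR-155-/- kidneys at 72 h, Ccnb1, Espl1, Anln, Top2a and Ncaph fell in wild type kidneys, Mad2l1 rose there too, and Nek2, Cdc20 and Tpx2 were not called there. Both members that fell in miR-155-/- kidneys, Cenpe and Ect2, also fell in wild type kidneys. A further 15 members fell in wild type kidneys and were not called in miR-155-/- kidneys. Of the 23 tested members whose promoter windows held TTTGAA or TTCGAA, 4 rose and 1 fell in miR-155-/- kidneys (median log2 difference 0.27) and 15 fell in wild type kidneys (median -1.03). Of the 7 whose windows held neither, 4 rose and 1 fell in miR-155-/- kidneys (median 0.60), and 1 rose and 4 fell in wild type kidneys (median -0.77). Of all features 17.7% rose and 17.5% fell in miR-155-/- kidneys and 12.5% rose and 12.8% fell in wild type kidneys at 72 h, so that the miR-155-/- counts of the 23 were near or below those shares. The test of the difference between these responses, the interaction at 72 h, is taken up after the members' own values.

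**Figure D2:**
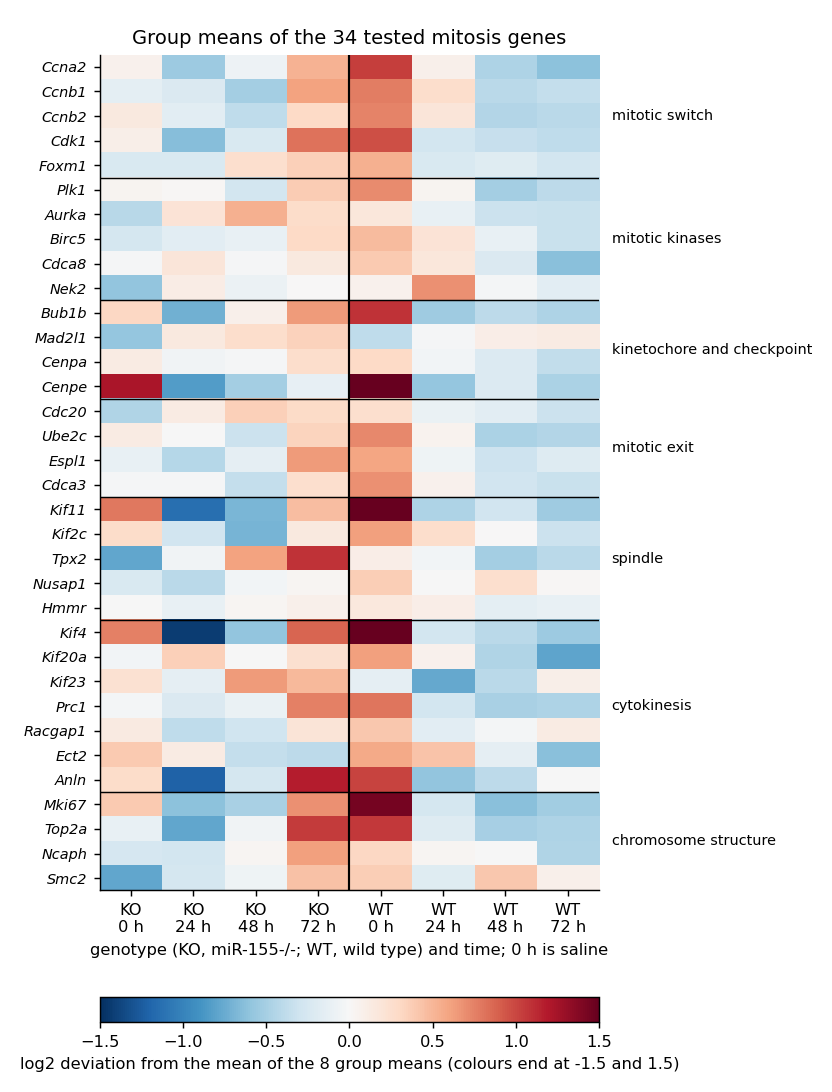
Group means of the 34 tested mitosis genes (rows, by role) in the 8 groups (columns, miR-155-/- left and wild type right, 0 h being saline), as log2 deviation from the mean of the gene's 8 group means, blue below and red above. The highest mean is in the miR-155-/- 72 h column for 6 rows and in the wild type 0 h column for 24, while Mad2l1 is lowest in both 0 h columns and Cenpe is highest in them.

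The switch into mitosis is thrown by cyclins A and B with their kinase Cdk1, and its genes come first. Ccna2 encodes cyclin A, which acts from S phase to early mitosis. Ccna2 in miR-155-/- kidneys read 64.2, 84.6, 70.2 and 85.4 after saline, 57.7, 63.6, 46.8 and 35.6 at 24 h, 77.9, 56.7, 82.1 and 62.3 at 48 h and 121, 129, 127 and 59.4 at 72 h. Ccna2 in wild type kidneys read 117, 155.3, 122 and 220.1 after saline, 80.5, 73.2, 69.7 and 82.8 at 24 h, 73.8, 46.8, 45.4 and 48.4 at 48 h and 48.4, 53.1, 34.9 and 55.9 at 72 h. The wild type arrays at 48 and 72 h all lay below every wild type saline array, while 3 of the 4 miR-155-/- arrays at 72 h lay above every miR-155-/- saline array and array 4 below them. Ccna2 fell in miR-155-/- kidneys at 24 h (log2 difference -0.60 ± 0.24, adjusted p = 0.0364), and at 72 h its difference of 0.46 ± 0.24 (adjusted p = 0.134) did not pass the test. It fell in wild type kidneys at 24, 48 and 72 h, with log2 differences of -0.96 ± 0.24 (adjusted p = 0.00197), -1.501 ± 0.24 (adjusted p = 2.34e-05) and -1.65 ± 0.24 (adjusted p = 5.26e-06). The miR-155-/- call at 24 h was lost in 4 of 8 fits that left out 1 array of either group, and the wild type calls in none.

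Ccnb1 encodes cyclin B1, the partner with which Cdk1 drives entry into mitosis. Ccnb1 in miR-155-/- kidneys read 50.6, 47.1, 44 and 59.7 after saline, 45.1, 51.4, 40.9 and 56.1 at 24 h, 42.2, 41.2, 45.8 and 29.2 at 48 h and 107.02, 113, 92.7 and 45.9 at 72 h. Ccnb1 in wild type kidneys read 64.1, 93.9, 74.5 and 178 after saline, 74.2, 68.1, 51.5 and 76 at 24 h, 50.7, 42.8, 35.1 and 40.4 at 48 h and 46.9, 42.4, 37 and 49 at 72 h. At 72 h miR-155-/- arrays 1 to 3 stood above all saline miR-155-/- arrays, and array 4 stood within their range. Ccnb1 rose in miR-155-/- kidneys at 72 h (log2 difference 0.76 ± 0.26, adjusted p = 0.0212) and fell in wild type kidneys at 72 h (-1.12 ± 0.26, adjusted p = 0.00159) and 48 h (-1.17 ± 0.26, adjusted p = 0.0011). The call of the rise was lost in 4 of 8 fits that left out 1 array of either group, and those of the falls in none. The dimmer Ccnb1 probes gave differences of 0.63 and 0.05 in miR-155-/- kidneys and of -1.37 and -0.82 in wild type kidneys at 72 h.

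Ccnb2, the cyclin B2 gene, read 224, 267, 217 and 96.9 in miR-155-/- kidneys at 72 h and 159, 161, 178 and 182 in saline miR-155-/- kidneys. Ccnb2 in wild type kidneys read 109, 129, 96 and 131 at 72 h and 196, 245, 199 and 448 after saline, with no overlap. Its miR-155-/- difference of 0.15 ± 0.24 (adjusted p = 0.688) did not pass the test, and it fell in wild type kidneys (-1.15 ± 0.24, adjusted p = 0.000753). Cdk1 itself gave 0.72 ± 0.37 (adjusted p = 0.13) in miR-155-/- kidneys at 72 h. Cdk1 in wild type kidneys fell at 24, 48 and 72 h, by 1.24 ± 0.37, 1.31 ± 0.37 and 1.35 ± 0.37 on the log2 scale (adjusted p = 0.00666 at 72 h). Foxm1, the transcription factor that activates the late cell cycle genes, gave 0.59 ± 0.25 (adjusted p = 0.0682) in miR-155-/- kidneys at 72 h and fell in wild type kidneys at all 3 times (-0.80 ± 0.25, adjusted p = 0.0183, at 72 h). Its wild type calls at 24, 48 and 72 h were lost in 1, 5 and 2 of the 8 fits that left out 1 array of either group. Of the 5 tested switch genes 1 rose and none fell in miR-155-/- kidneys at 72 h, where 17.7% of all features rose and 17.5% fell, and all 5 fell in wild type kidneys at 72 h, against 12.8% of all features. Cdc25c, whose phosphatase activates Cdk1, was well above background on 17 of 32 arrays and was not tested.

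The mitotic kinases build the spindle and, with the chromosomal passenger complex, correct its attachments. Plk1, the Polo kinase gene, read 167, 152, 154.6 and 79.4 in miR-155-/- kidneys at 72 h and 87.1, 106, 113 and 117 in saline miR-155-/- kidneys. Plk1 in wild type kidneys read 80.9, 77.2, 63.3 and 65.1 at 48 h, 70.2, 82.3, 71.6 and 86.2 at 72 h and 128, 182, 129 and 251 after saline. The wild type arrays at both times lay below every wild type saline array. It gave 0.34 ± 0.25 (adjusted p = 0.325) in miR-155-/- kidneys at 72 h and fell in wild type kidneys at 24 h (-0.66 ± 0.25, adjusted p = 0.0389), 48 h (-1.22 ± 0.25, adjusted p = 0.000693) and 72 h (-1.10 ± 0.25, adjusted p = 0.0017). Birc5, which encodes survivin of the passenger complex, read 524, 481, 452 and 189 in miR-155-/- kidneys at 72 h and 271, 270.3, 215 and 287 in saline miR-155-/- kidneys. Birc5 in wild type kidneys read 237, 261, 235 and 249.8 at 72 h and 327, 474, 314 and 710.0 after saline. miR-155-/- 72 h arrays 1 to 3 were far above the saline arrays and array 4 was below them all, so that the difference was 0.56 ± 0.24 (adjusted p = 0.0659). The wild type groups did not overlap, and Birc5 fell there at 72 h (-0.81 ± 0.24, adjusted p = 0.0117). Its 2 other probes gave -0.91 and -0.80 for the same difference.

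Cdca8, which encodes the passenger protein borealin, gave 0.16 ± 0.24 (adjusted p = 0.657) in miR-155-/- kidneys at 72 h and fell in wild type kidneys (-1.02 ± 0.24, adjusted p = 0.00236). Aurka, the Aurora A gene, read 136, 379, 443 and 115 in miR-155-/- kidneys at 48 h and 113, 113, 116 and 126 in saline miR-155-/- kidneys, so that arrays 2 and 3 alone stood far above saline. It was called higher at 48 h (0.95 ± 0.33, adjusted p = 0.0213), a call lost without array 2 or array 3 at 48 h (down to 0.63, with adjusted p up to 0.14), with 0.69 ± 0.33 (adjusted p = 0.107) at 72 h, and was not called in wild type kidneys. Nek2, whose kinase separates the centrosomes, rose in miR-155-/- kidneys at 24, 48 and 72 h, by 0.70 ± 0.20, 0.51 ± 0.20 and 0.60 ± 0.20 on the log2 scale (adjusted p = 0.00547, 0.0433 and 0.0213). Its 48 h call was lost in 6 of 8 fits that left out 1 array of either group, and its 72 h call in 3 of 8. In wild type kidneys Nek2 rose at 24 h (0.61 ± 0.20, adjusted p = 0.0178) and gave -0.23 ± 0.20 (adjusted p = 0.439) at 72 h. Of the 5 tested kinase genes 1 rose and none fell in miR-155-/- kidneys at 72 h, against 17.7% and 17.5% of all features, and 3 fell and none rose in wild type kidneys, against 12.8% and 12.5%. Aurkb, the Aurora B gene, was well above background on 0 of 32 arrays.

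The spindle checkpoint and kinetochore genes did not move as 1 group. Cenpe encodes the kinesin CENP-E that carries chromosomes to the spindle equator. Cenpe in miR-155-/- kidneys read 654, 947, 555 and 653 after saline, 202, 169.9, 165 and 128 at 24 h, 197, 284, 154 and 215 at 48 h and 322, 321, 268 and 194 at 72 h. Cenpe in wild type kidneys read 907, 778, 788 and 859 after saline, 212, 162, 232 and 187 at 24 h, 227, 202, 296 and 313 at 48 h and 249, 208, 209.8 and 186 at 72 h. Every treated array of either genotype lay below every saline array. Cenpe fell by 2.07 ± 0.19, 1.73 ± 0.19 and 1.35 ± 0.19 on the log2 scale in miR-155-/- kidneys at 24, 48 and 72 h (adjusted p = 3.18e-06 at 72 h) and by 2.08 ± 0.19, 1.70 ± 0.19 and 1.97 ± 0.19 in wild type kidneys (adjusted p = 1.14e-08 at 72 h). Its response did not pass the test of a difference between genotypes at 72 h (0.63 ± 0.27, adjusted p = 0.548).

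Mad2l1, which encodes the checkpoint protein MAD2, went up after cisplatin. Mad2l1 in miR-155-/- kidneys read 221, 234, 253 and 247 after saline, 346, 349, 464 and 422 at 24 h, 388, 372, 655 and 347 at 48 h and 466, 505, 476 and 374 at 72 h. Mad2l1 in wild type kidneys read 244, 305, 264 and 283 after saline, 341, 362, 329 and 365 at 24 h, 391, 403, 356 and 370.5 at 48 h and 375, 364, 374 and 434 at 72 h. All treated arrays lay above all saline arrays of their genotype. It rose in miR-155-/- kidneys at 24, 48 and 72 h (0.72 ± 0.14 with adjusted p = 0.000166, 0.84 ± 0.14 with adjusted p = 3.59e-05 and 0.93 ± 0.14 with adjusted p = 9.34e-06) and in wild type kidneys at 48 and 72 h (0.48 ± 0.14 with adjusted p = 0.0153 and 0.50 ± 0.14 with adjusted p = 0.0102). The 2 dimmer Mad2l1 probes went against it, with differences of -0.23 and -0.59 in miR-155-/- kidneys and of -0.68 and -0.38 in wild type kidneys at 72 h. Averaging the 3 probes gave -0.07 at 48 h and -0.19 at 72 h in wild type kidneys, neither past the test. The rise of Mad2l1 thus holds for 1 probe of 3.

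Bub1b, the gene of the checkpoint kinase BUBR1, fell in miR-155-/- kidneys at 24 h (-1.04 ± 0.30, adjusted p = 0.00554), with 0.32 ± 0.30 (adjusted p = 0.446) at 72 h. Bub1b in wild type kidneys fell at 24, 48 and 72 h (-1.61 ± 0.30 with adjusted p = 0.000109, -1.48 ± 0.30 with adjusted p = 0.000549 and -1.54 ± 0.30 with adjusted p = 0.000291). Cenpa, which encodes the histone variant that marks centromeres, was called in no comparison and gave -0.67 ± 0.27 (adjusted p = 0.0712) in wild type kidneys at 72 h. Bub1 was above background on 0 of 4 wild type arrays at 48 or 72 h and on 2 of 4 wild type saline arrays. It was not tested, and no size is given because its saline mean includes arrays not above background. Where a gene below is given as at least so many fold lower, that bound sets the bright group's mean against a floor. The floor is the lowest signal counted as above background on each dim array. Ttk, the MPS1 kinase gene, was above background on 0 arrays and Cenpf on 2.

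Exit from mitosis runs through the anaphase-promoting complex, which tags cyclins and securin for destruction. Ube2c encodes the ubiquitin-conjugating enzyme that works with it. Ube2c read 78.5, 73.2, 64.3 and 30.8 in miR-155-/- kidneys at 72 h and 47.4, 51.7, 47 and 55 in saline miR-155-/- kidneys. Ube2c in wild type kidneys read 40.6, 33, 27.7 and 31.9 at 48 h, 31.5, 39.1, 27.9 and 38.4 at 72 h and 67.5, 74.9, 55.1 and 117 after saline. The wild type groups did not overlap at either time, whereas miR-155-/- array 4 at 72 h lay below all saline miR-155-/- arrays and arrays 1 to 3 above them. Ube2c gave 0.21 ± 0.24 (adjusted p = 0.535) in miR-155-/- kidneys at 72 h and fell in wild type kidneys at 48 h (-1.196 ± 0.24, adjusted p = 0.000412) and 72 h (-1.16 ± 0.24, adjusted p = 0.000515).

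Cdc20, which encodes the activator of the complex at anaphase, read 533, 539, 481 and 277 in miR-155-/- kidneys at 72 h and 271, 278, 224 and 292 in saline miR-155-/- kidneys. Cdc20 in wild type kidneys read 252, 334, 264 and 312 at 72 h and 332, 389.5, 349 and 762 after saline. The miR-155-/- groups met at array 4, and the wild type groups overlapped. Cdc20 rose in miR-155-/- kidneys at 48 h (0.81 ± 0.27, adjusted p = 0.0183) and 72 h (0.74 ± 0.27, adjusted p = 0.0352) and gave -0.58 ± 0.27 (adjusted p = 0.125) in wild type kidneys at 72 h. At 48 h miR-155-/- array 3 read 853, against 363 to 393 on the other 3 arrays, and the 48 h call was lost without it or without saline miR-155-/- array 3 (0.51 at the lowest). The 72 h call of Cdc20 was lost in 6 of the 8 fits that left out 1 array of either group (limma adjusted p up to 0.103). Espl1, the gene of separase, which cuts the cohesin between sister chromatids, rose in miR-155-/- kidneys at 72 h (0.75 ± 0.28, adjusted p = 0.0342) and fell in wild type kidneys (-0.79 ± 0.28, adjusted p = 0.0341). Leaving out 1 array of either group lost the miR-155-/- call in 5 of 8 fits and the wild type call in 4 of 8. Cdca3, an adaptor of a ubiquitin ligase that permits entry into mitosis, gave 0.27 ± 0.21 (adjusted p = 0.33) in miR-155-/- kidneys at 72 h and fell in wild type kidneys at 24, 48 and 72 h (-1.03 ± 0.21, adjusted p = 0.00038, at 72 h).

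Among spindle genes, Tpx2 stood out by rising in miR-155-/- kidneys. Its protein activates Aurora A and nucleates microtubules near chromosomes. Tpx2 in miR-155-/- kidneys read 27.8, 24.6, 28.7 and 33.6 after saline, 38.8, 40.9, 63.7 and 49.2 at 24 h, 72.9, 52.8, 123 and 64.6 at 48 h and 124, 109, 151 and 56.8 at 72 h. Tpx2 in wild type kidneys read 38.7, 66.6, 36.6 and 78.8 after saline, 56.9, 49.8, 29.2 and 62.5 at 24 h, 59.6, 51.8, 16 and 28 at 48 h and 27.9, 35.4, 41.4 and 44.9 at 72 h. All miR-155-/- arrays at 24, 48 and 72 h lay above all saline miR-155-/- arrays, and the wild type groups overlapped. Tpx2 rose in miR-155-/- kidneys at 48 h (1.38 ± 0.35, adjusted p = 0.00246) and 72 h (1.87 ± 0.35, adjusted p = 0.000132), a difference at 72 h of 3.64-fold, and gave -0.51 ± 0.35 (adjusted p = 0.324) in wild type kidneys at 72 h. A second, dimmer Tpx2 probe, above background on 23 arrays, gave -0.24 in miR-155-/- kidneys and -0.79 in wild type kidneys at 72 h, so that the rise holds for 1 probe of 2.

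Kif11 is the gene of the kinesin Eg5 that pushes the spindle poles apart. It passed the filter on dim probes through the wild type saline arrays alone, 4 of 4 of which were above background, against 0 to 2 of 4 in every other group. In wild type kidneys at 72 h it was above background on 0 of 4 arrays and at least 2.1-fold lower than after saline (adjusted p = 0.00029), a direction that this selection had fixed in advance. It was also called lower in wild type kidneys at 24 and 48 h and in miR-155-/- kidneys at 24 and 48 h, but these differences lie largely below background and no size is given. Kif11 is counted among the called members at those times and in wild type kidneys at 72 h. It is also counted with those lower in saline miR-155-/- than in saline wild type kidneys. Its selection fixed the direction in every comparison with the wild type saline arrays, which lend its fall no support. Hmmr, a microtubule-binding protein gene, read 196, 185, 191 and 201 in miR-155-/- kidneys at 72 h and 157, 201, 198 and 181 in saline miR-155-/- kidneys. Hmmr in wild type kidneys read 174, 160.4, 155.02 and 192 at 72 h and 186, 183, 209 and 251 after saline. Both pairs of groups overlapped, and Hmmr was called in no comparison. Kif2c, whose kinesin takes apart faulty attachments, and Nusap1, a spindle-bundling protein gene, were also called in no comparison. Their wild type differences at 72 h were -0.94 ± 0.44 (adjusted p = 0.118) and -0.35 ± 0.20 (adjusted p = 0.204).

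Cytokinesis splits the cell once the chromosomes have parted. Kif4 encodes the chromokinesin that organises the central spindle. Kif4 in miR-155-/- kidneys read 9.28, 12.5, 14.2 and 17.7 after saline, 2.19, 3.05, 3.03 and 3.43 at 24 h, 6.42, 5.51, 5.39 and 3.58 at 48 h and 15, 21.7, 20.2 and 6.05 at 72 h. Kif4 in wild type kidneys read 18.5, 33.2, 12.7 and 39.5 after saline, 6.45, 8.32, 3.58 and 8.74 at 24 h, 6.22, 5.9, 5.09 and 6.25 at 48 h and 3.84, 6.7, 4.53 and 6.73 at 72 h. Every treated wild type array lay below every wild type saline array, and miR-155-/- kidneys were lowest at 24 h and overlapped saline at 72 h. Kif4 fell in miR-155-/- kidneys at 24 and 48 h (-2.18 ± 0.37 with adjusted p = 2.48e-05 and -1.36 ± 0.37 with adjusted p = 0.00407), and at 72 h the difference was 0.11 ± 0.37 (adjusted p = 0.854). At 24 h it was above background on 0 of 4 miR-155-/- arrays and on 4 of 4 saline miR-155-/- arrays, at least 2.33-fold lower. Kif4 in wild type kidneys fell at 24, 48 and 72 h (-1.88 ± 0.37 with adjusted p = 0.000191, -2.01 ± 0.37 with adjusted p = 0.000165 and -2.16 ± 0.37 with adjusted p = 5.87e-05).

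Anln encodes anillin, a scaffold of the contractile ring. Anln in miR-155-/- kidneys read 50.7, 87, 54.3 and 65.4 after saline, 19.7, 26, 22.3 and 22.7 at 24 h, 43, 44, 42.9 and 43.7 at 48 h and 141, 131, 166 and 62.7 at 72 h. Anln in wild type kidneys read 76.7, 143, 74.7 and 150.1 after saline, 45.9, 35.3, 25.8 and 34.5 at 24 h, 58.3, 36.3, 36.3 and 32.3 at 48 h and 46.2, 58.5, 38.8 and 69.6 at 72 h. In miR-155-/- kidneys all arrays at 24 h lay below saline and, at 72 h, arrays 1 to 3 lay above it with array 4 inside its range. Anln fell at 24 h in miR-155-/- kidneys (-1.48 ± 0.27, adjusted p = 6.77e-05) and rose there at 72 h (0.90 ± 0.27, adjusted p = 0.01). Anln in wild type kidneys fell at 24, 48 and 72 h (-1.60 ± 0.27 with adjusted p = 3.21e-05, -1.41 ± 0.27 with adjusted p = 0.000296 and -1.02 ± 0.27 with adjusted p = 0.00589).

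Kif20a encodes a kinesin that brings regulators to the central spindle. Kif20a in miR-155-/- kidneys read 93.7, 95.4, 88.1 and 112 after saline, 93, 118, 177 and 133 at 24 h, 93.4, 80.1, 136 and 94 at 48 h and 159.7, 132, 136 and 67 at 72 h. Kif20a in wild type kidneys read 116, 148, 123 and 259 after saline, 105, 125, 70.9 and 126 at 24 h, 92.9, 83.6, 56.1 and 64.9 at 48 h and 52.7, 65.6, 48.4 and 65.4 at 72 h. Wild type arrays at 48 and 72 h all lay below the wild type saline arrays, and the miR-155-/- groups at 72 h and after saline overlapped through array 4. Kif20a was not called in miR-155-/- kidneys, with 0.28 ± 0.26 (adjusted p = 0.443) at 72 h, and fell in wild type kidneys at 48 h (-1.07 ± 0.26, adjusted p = 0.0034) and 72 h (-1.41 ± 0.26, adjusted p = 0.000171). Ect2, which is needed for the cleavage furrow, read 261, 241, 204 and 152 in miR-155-/- kidneys at 72 h and 403, 391.6, 362 and 305 in saline miR-155-/- kidneys. Ect2 in wild type kidneys read 169.7, 179, 187 and 184 at 72 h and 511, 341, 354 and 459.8 after saline. Neither pair of groups overlapped. Ect2 fell at 72 h in miR-155-/- kidneys (-0.79 ± 0.26, adjusted p = 0.0167) and in wild type kidneys (-1.19 ± 0.26, adjusted p = 0.000834).

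Prc1, which bundles the microtubules of the central spindle, gave 0.79 ± 0.34 (adjusted p = 0.0748) in miR-155-/- kidneys at 72 h and fell in wild type kidneys at 24, 48 and 72 h (-1.26 ± 0.34, adjusted p = 0.00688, at 72 h). Racgap1, a subunit of centralspindlin, fell at 24 and 48 h in miR-155-/- kidneys (-0.51 ± 0.16 with adjusted p = 0.00797 and -0.43 ± 0.16 with adjusted p = 0.0272) and in wild type kidneys (-0.56 ± 0.16 with adjusted p = 0.00496 and -0.44 ± 0.16 with adjusted p = 0.0368). Its miR-155-/- call at 48 h was lost without saline array 3 or 4 or 48 h array 3 (-0.26 at the weakest). The wild type call of Racgap1 at 48 h was lost in 5 of 8 fits that left out 1 array of either group (limma adjusted p up to 0.146). Kif23, the motor subunit of centralspindlin, was called in no comparison, and gave 0.26 ± 0.35 (adjusted p = 0.614) in miR-155-/- and 0.22 ± 0.35 (adjusted p = 0.694) in wild type kidneys at 72 h. Of the 7 cytokinesis genes 1 rose and 1 fell in miR-155-/- kidneys at 72 h, shares below the 17.7% and 17.5% of all features, and 5 fell and none rose in wild type kidneys, against 12.8% and 12.5%.

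Genes of chromosome structure included the proliferation marker Mki67, whose protein coats mitotic chromosomes. Mki67 in miR-155-/- kidneys read 200.2, 183, 174 and 246 after saline, 82.1, 84.7, 152 and 88.1 at 24 h, 129, 103, 106 and 96.6 at 48 h and 313, 328, 325 and 104 at 72 h. Mki67 in wild type kidneys read 274, 512, 283 and 700.1 after saline, 151, 139, 93.8 and 125 at 24 h, 169.8, 96.3, 68.6 and 82.1 at 48 h and 103, 104, 89.2 and 129 at 72 h. All treated wild type arrays lay below all wild type saline arrays. In miR-155-/- kidneys arrays 1 to 3 at 72 h, at 313 to 328, lay above every other miR-155-/- array, and array 4 lay below the saline arrays. Mki67 fell in miR-155-/- kidneys at 24 and 48 h (-1.02 ± 0.32 with adjusted p = 0.01 and -0.88 ± 0.32 with adjusted p = 0.027), with 0.29 ± 0.32 (adjusted p = 0.531) at 72 h. It fell in wild type kidneys at 24, 48 and 72 h (-1.70 ± 0.32 with adjusted p = 0.00012, -2.06 ± 0.32 with adjusted p = 1.96e-05 and -1.95 ± 0.32 with adjusted p = 3.48e-05). Its second probe gave 0.46 in miR-155-/- kidneys and -2.41 in wild type kidneys at 72 h. The miR-155-/- call of Mki67 at 48 h was lost in 3 of 8 fits that left out 1 array of either group.

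Top2a encodes the topoisomerase that untangles sister chromatids. Top2a in miR-155-/- kidneys read 21, 24.4, 28.7 and 37 after saline, 11.7, 18.5, 24.1 and 16.3 at 24 h, 35.4, 25.4, 33.2 and 21.6 at 48 h and 69.6, 85.5, 95.8 and 24.2 at 72 h. Top2a in wild type kidneys read 42.2, 108, 37.9 and 83.7 after saline, 29.8, 29.6, 18 and 28 at 24 h, 32.5, 23.6, 15.6 and 15.7 at 48 h and 18.2, 24.1, 13.9 and 33.6 at 72 h. At 72 h miR-155-/- arrays 1 to 3 lay above all saline miR-155-/- arrays and array 4 within them, and all treated wild type arrays lay below all wild type saline arrays. Top2a rose in miR-155-/- kidneys at 72 h (1.17 ± 0.38, adjusted p = 0.0166) and fell in wild type kidneys at 24, 48 and 72 h (-1.26 ± 0.38 with adjusted p = 0.00951, -1.57 ± 0.38 with adjusted p = 0.00285 and -1.53 ± 0.38 with adjusted p = 0.00305). The call of the rise was lost in 3 of 8 fits that left out 1 array of either group, and those of the falls in none.

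Ncaph is a condensin subunit gene. Ncaph in miR-155-/- kidneys read 99, 101, 101 and 105 after saline, 112, 117, 83.7 and 89.7 at 24 h, 134, 138, 101 and 122 at 48 h and 242, 219, 232 and 93.8 at 72 h. Ncaph in wild type kidneys read 115, 206, 120.4 and 177 after saline, 118, 138, 99.8 and 142 at 24 h, 175, 145, 84.6 and 95.9 at 48 h and 88.5, 103, 95.6 and 69.7 at 72 h. At 72 h 3 of 4 miR-155-/- arrays were at 219 or above, and array 4 was below the saline arrays. The wild type arrays at 72 h all lay below the wild type saline arrays. Ncaph rose in miR-155-/- kidneys at 72 h (0.86 ± 0.25, adjusted p = 0.00775) and fell in wild type kidneys (-0.77 ± 0.25, adjusted p = 0.0232). Smc2, the core condensin ATPase gene, read 359, 347, 307 and 259 in miR-155-/- kidneys at 72 h and 295, 262, 16.6 and 259.8 in saline miR-155-/- kidneys. Smc2 in wild type kidneys read 312, 192, 276 and 213 at 72 h and 304, 287, 275 and 334 after saline. Saline miR-155-/- array 3 stood far below the other 3, and Smc2 was called in no comparison. Ncapg, a further condensin gene, was above background on 4 of 32 arrays and was not tested.

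**Figure D3:**
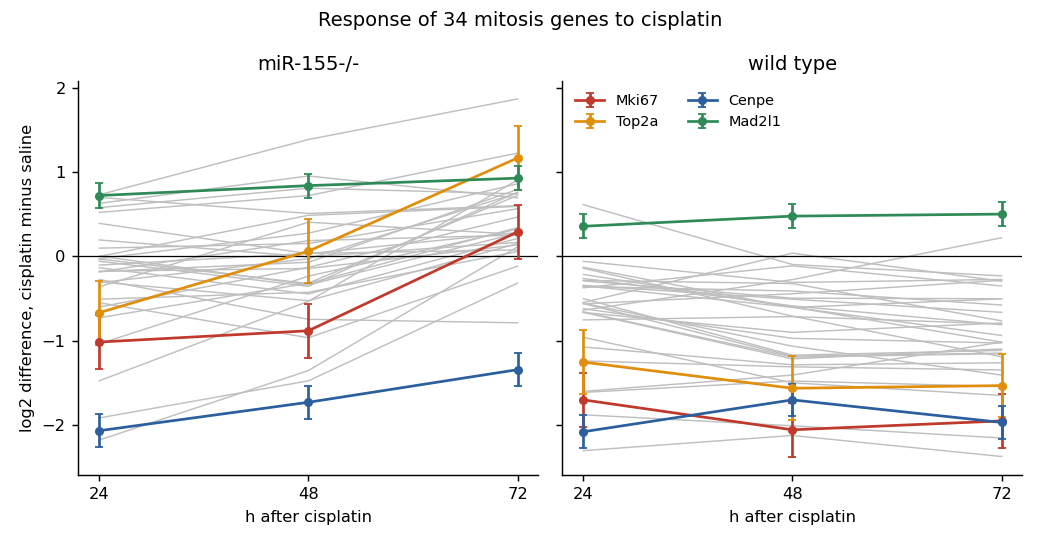
Log2 difference of cisplatin minus saline (y axis) at 24, 48 and 72 h (x axis) for the 34 tested mitosis genes (grey lines), miR-155-/- on the left and wild type on the right, with Mki67, Top2a, Cenpe and Mad2l1 in colour with standard errors. Top2a ends at 1.17 in miR-155-/- kidneys and at -1.53 in wild type kidneys, while Cenpe lies below -1.3 in both throughout.

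The responses of the genotypes to cisplatin were then set against each other. The interaction at 72 h is the miR-155-/- difference from saline minus the wild type one. It was above 0 for 34 of 34 tested members, with a median of 1.38 against -0.04 over all features. Kif11 is among the 34, and its selection through the wild type saline arrays favoured a value above 0. The members were read on the same arrays and moved together by array, so counts of members, here and below, are not independent observations. Of the members 8 were called higher and none lower, where 0.173% of all features were called higher and 0.0379% lower. The 8 were Ccna2 (2.11 ± 0.34, adjusted p = 0.00293), Ccnb1 (1.88 ± 0.36, adjusted p = 0.0229), Tpx2 (2.37 ± 0.50, adjusted p = 0.037), Kif20a (1.69 ± 0.37, adjusted p = 0.0461), Anln (1.92 ± 0.38, adjusted p = 0.0255), Mki67 (2.24 ± 0.45, adjusted p = 0.0285), Top2a (2.70 ± 0.53, adjusted p = 0.0255) and Ncaph (1.62 ± 0.35, adjusted p = 0.0435). The second probes of Tpx2 and Mki67 gave interactions of 0.55 and 2.87, and the dimmer Ccnb1 probes gave 1.997 and 0.87. At an unadjusted p under 0.05 the count was 28 of 34, against 7.57% of all features. Kif4 (2.27 ± 0.52, adjusted p = 0.0597), Cdk1 (2.07 ± 0.52, adjusted p = 0.0863) and Prc1 (2.06 ± 0.49, adjusted p = 0.0679) had estimates as large as those called. The smallest were those of Kif23 (0.04 ± 0.49), Racgap1 (0.34 ± 0.22) and Hmmr (0.35 ± 0.21).

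**Figure D4:**
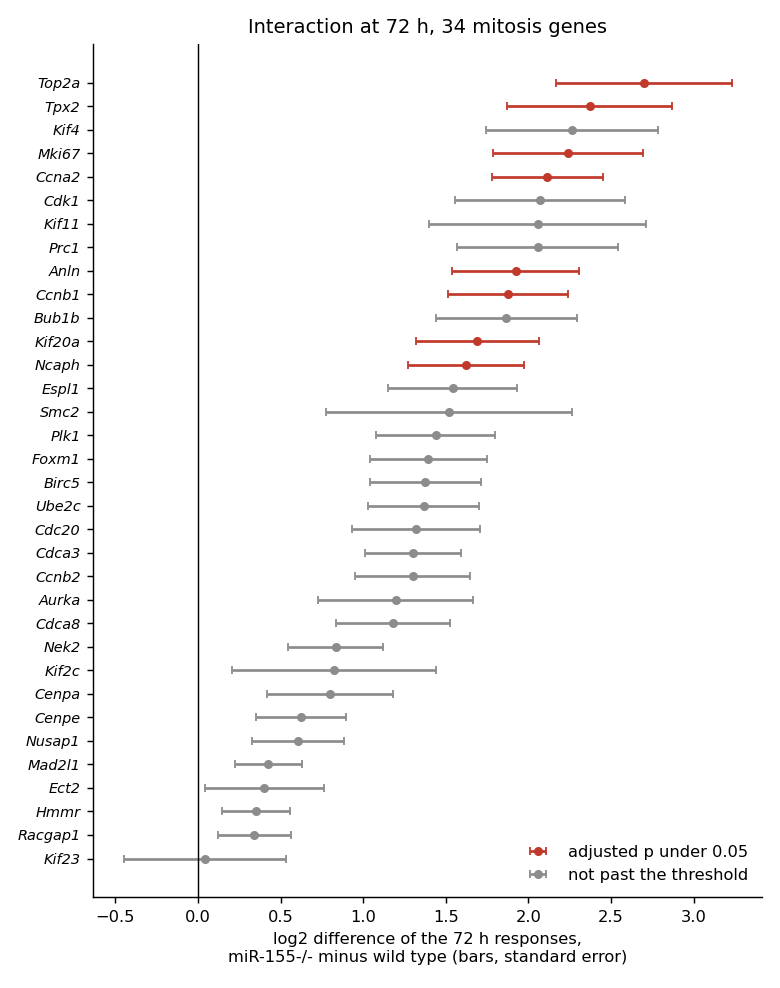
Interaction at 72 h, the miR-155-/- response minus the wild type response on the log2 scale (x axis), for the 34 tested mitosis genes (y axis, ordered by estimate), with standard errors. All estimates lie above 0, from 0.04 for Kif23 to 2.70 for Top2a, and the 8 called genes are in red.

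The count of 8 depended on single arrays. It was 20 without miR-155-/- 72 h array 4 and 13 without wild type saline array 1. It was 1 without wild type saline array 2, saline miR-155-/- array 1, wild type 72 h array 1 or 3, or miR-155-/- 72 h array 1, 2 or 3, and 2 without wild type saline array 4. It was 4, 3 and 5 without saline miR-155-/- arrays 2, 3 and 4, and 4 without wild type 72 h array 2. With miR-155-/- 72 h array 4 and wild type saline array 4 both left out it was 17, with miR-155-/- array 3 at 24 h and array 3 at 48 h left out 20, and with normexp background correction 0, with a median of the members of 1.26. Over all features the interaction had 50 calls in the main fit and 110, 391 and 4 calls in these settings in turn. Within scan day 1 the median interaction of the members was 1.38 (33 of 34 above 0) and within scan day 2 it was 1.07 (33 of 34 above 0). Scan day 1 held 1 saline array of each genotype and scan day 2 held 1 wild type 72 h array, so both values lean on single arrays.

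Both ends of this interaction contributed to its size. At 72 h the miR-155-/- kidneys were higher than the wild type kidneys in 34 of 34 members, with a median log2 difference of 0.74, and 4 members passed the test, where 0.598% of all features were called higher and 0.122% lower. These were Ccna2 (1.14 ± 0.24, adjusted p = 0.0175), Tpx2 (1.496 ± 0.35, adjusted p = 0.0384), Anln (1.18 ± 0.27, adjusted p = 0.0323) and Ncaph (1.06 ± 0.25, adjusted p = 0.0364). The second, dimmer Tpx2 probe gave 0.53. Top2a (1.52 ± 0.38, adjusted p = 0.0519) and Mki67 (1.21 ± 0.32, adjusted p = 0.0788) did not pass. At an unadjusted p under 0.05 the count was 23 of 34, against 10.9% of all features. After saline the miR-155-/- kidneys were lower than the wild type kidneys in 33 of 34 members, with a median of -0.68, and 0 members were called by limma, where 0.0884% of all features were called higher and 0.0253% lower. At an unadjusted p under 0.05 it was 24 of 34, against 3.32% of all features. As in the interaction, the members share their arrays and these counts are not independent observations. In 18 of 34 members all 4 saline miR-155-/- arrays lay below all 4 wild type saline arrays, against 2.73% of all features, among them Ccna2, Mki67 and Top2a. Top2a gave -1.18 ± 0.38 (adjusted p = 0.597) and Mki67 -1.04 ± 0.32 (adjusted p = 0.525).

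**Figure D5:**
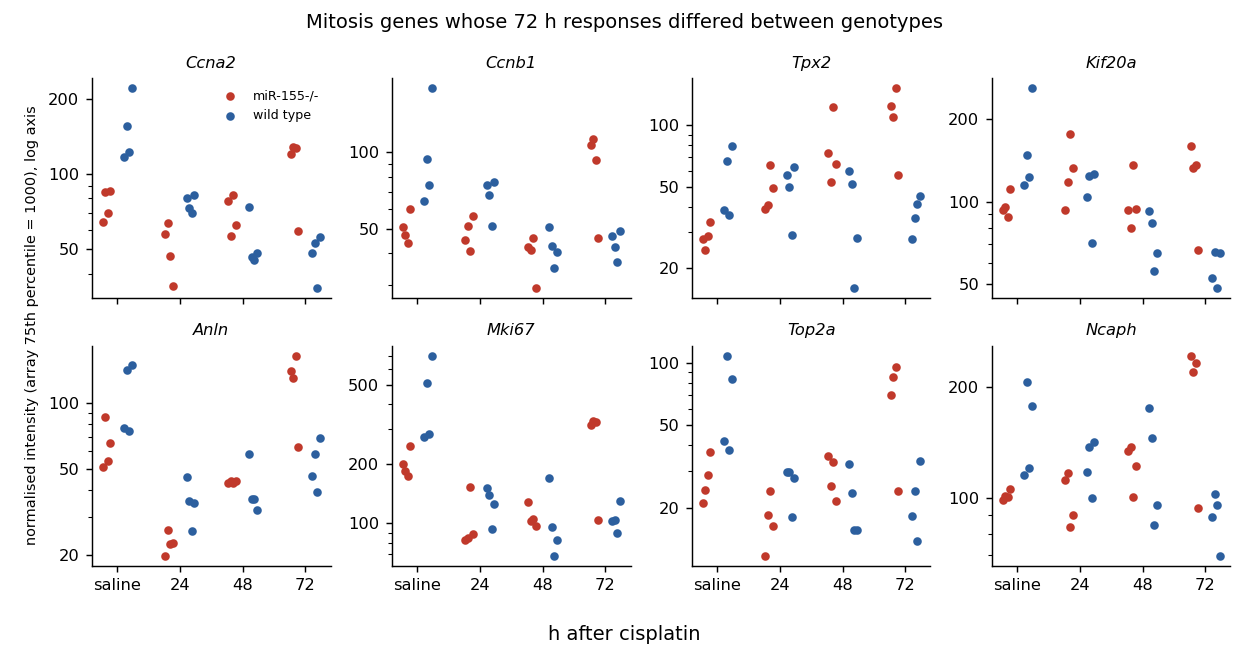
Normalised intensity (log y axis, array 75th percentile at 1000) on every array for the 8 mitosis genes called in the 72 h interaction, by time after cisplatin in h (x axis), miR-155-/- in red left of wild type in blue. In each panel at least 3 of the 4 miR-155-/- arrays at 72 h lie above all 4 wild type arrays at 72 h, and the wild type saline arrays spread widely.

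The count at 72 h was 18 without miR-155-/- 72 h array 4, 1 without wild type 72 h array 2, and 0 without wild type 72 h array 1 or 3 or miR-155-/- 72 h array 1, 2 or 3. It was 8 with the slide as a block and 0 with normexp. Over all features these settings gave 259 and 63 calls, against 171 in the main fit. On the 3 slides that held both 72 h groups, the median of the members was 0.793, 1.188 and 1.199, and within the 2 scan days it was 1.07 and 0.33. Each of these slides held 1 array of either group, and the second scan day held 1 wild type 72 h array. miR-155-/- array 4 lay on a slide with no wild type 72 h array, so the slide values leave it out, and it is in the second scan day. On the 3 slides that held both saline groups the median was -0.26, -0.59 and -0.39.

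At 24 and 48 h no member was called between the genotypes by limma. At 24 h miR-155-/- against wild type kidneys gave 0 calls, where 0.0632% of features were called higher and 0.0168% lower. The median of the members was -0.24, and 5 had an unadjusted p under 0.05, against 9.31% of all features. At 48 h 0 were called, against 0.0927% higher and 0.00842% lower, with a median of 0.15 and 3 at an unadjusted p under 0.05, against 15.2% of all features. The interaction at 24 h called 0 members, and 0% of all features higher and 0% lower, with a median of 0.38 and 4 members at an unadjusted p under 0.05, against 3.31%. The interaction at 48 h also called 0 members, and 0% of all features higher and 0% lower, with a median of 0.71 and 18 members at an unadjusted p under 0.05, against 7.17%.

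From 1 time to the next, the late rise was seen between 48 and 72 h in miR-155-/- kidneys. At 72 h against 48 h 4 members rose and 0 fell there, where 3.16% of all features rose and 3.08% fell. They were Ccnb1 (1.12 ± 0.26, adjusted p = 0.00842), Kif4 (1.47 ± 0.37, adjusted p = 0.0156), Anln (1.44 ± 0.27, adjusted p = 0.00194) and Mki67 (1.17 ± 0.32, adjusted p = 0.0267), and 30 of 34 members had estimates above 0 (median 0.53). This count was 17 without miR-155-/- 72 h array 4, 2 without miR-155-/- 72 h array 2 or 3, and 0 with normexp. Calls over all features fell with normexp too, to 354 against 1483. At 48 h against 24 h Anln alone rose in miR-155-/- kidneys (0.94 ± 0.27, adjusted p = 0.0454), where 2.02% of all features rose and 2% fell, and its call was lost in 7 of the 8 fits that left out 1 array of either time, all but the one without 48 h array 3. Nek2 in wild type kidneys fell at 48 h against 24 h (-0.71 ± 0.20, adjusted p = 0.0186), where 7.22% of all features fell and 5.88% rose. That call was lost without wild type 24 h array 2 or 48 h array 1. At 72 h against 48 h 0 members were called in wild type kidneys, 0 had an unadjusted p under 0.05, against 8.1% of all features, and 0.661% of all features rose and 0.211% fell.

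Further mitosis genes outside the 40 were measured too. Of the 65 tested, 24 rose and 4 fell in miR-155-/- kidneys at 72 h, where 17.7% of all features rose and 17.5% fell, and 10 rose and 21 fell in wild type kidneys, against 12.5% and 12.8%. In the interaction at 72 h 7 of them were called higher and none lower, against 0.173% and 0.0379% of all features. The 4 with the smallest adjusted p were the kinetochore gene Cenph (2.34 ± 0.36, adjusted p = 0.00293), Lmnb1, which encodes lamin B1 of the nuclear envelope (1.05 ± 0.16, adjusted p = 0.00293), Trip13, whose ATPase remodels MAD2 (1.72 ± 0.32, adjusted p = 0.0204), and the kinase gene Melk (2.77 ± 0.55, adjusted p = 0.0255). Gtse1, a microtubule-binding and p53-regulating protein gene, rose by 4.79 ± 0.29 on the log2 scale in miR-155-/- kidneys and by 4.17 ± 0.29 in wild type kidneys at 72 h (adjusted p = 8.33e-13 and 1.76e-11). Lmnb1 was also lower in saline miR-155-/- than in saline wild type kidneys (-0.57 ± 0.11, adjusted p = 0.0229).

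Genes of p53 arrest were high in both genotypes. Of 14 tested, 14 rose in miR-155-/- kidneys and 13 in wild type kidneys at 72 h, and none fell or was called in the interaction. Of all features 17.7% rose in miR-155-/- and 12.5% in wild type kidneys at 72 h. Cdkn1a gave 5.11 ± 0.29 (adjusted p = 2.49e-13) in miR-155-/- kidneys and 4.65 ± 0.29 (adjusted p = 1.58e-12) in wild type kidneys at 72 h, with an interaction of 0.46 ± 0.41 (adjusted p = 0.908). Ccng1, the p53 target cyclin G1, gave 1.88 ± 0.14 (adjusted p = 2.3e-11) in miR-155-/- and 1.97 ± 0.14 (adjusted p = 1.38e-11) in wild type kidneys. The G1 cyclin gene Ccnd1 gave 0.06 ± 0.18 (adjusted p = 0.845) in miR-155-/- kidneys and fell in wild type kidneys at 72 h (-1.09 ± 0.18, adjusted p = 3.27e-05), and its responses differed (1.15 ± 0.25, adjusted p = 0.0461). It read 12111, 8205, 10676 and 6349 in miR-155-/- kidneys at 72 h and 4577, 5433, 5468 and 4869 in wild type kidneys at 72 h, without overlap.

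Of 28 DNA replication genes tested, 16 rose and 6 fell in miR-155-/- kidneys and 8 rose and 5 fell in wild type kidneys at 24 h. At that time 26.6% of all features rose and 22.5% fell in miR-155-/- kidneys. In wild type kidneys 21% rose and 17.6% fell, so that the falls of these genes were near the shares of all features. At 72 h 12 rose and 3 fell in miR-155-/- kidneys, and 2 rose and 6 fell in wild type kidneys. For these and the other 72 h counts of this paragraph, 17.7% of all features rose and 17.5% fell in miR-155-/- kidneys. In wild type kidneys 12.5% of all features rose and 12.8% fell. The replication clamp gene Pcna rose at 24 h in miR-155-/- kidneys (1.31 ± 0.20, adjusted p = 7.82e-06) and in wild type kidneys (0.89 ± 0.20, adjusted p = 0.000916). The helicase gene Mcm6 gave -0.18 ± 0.11 (adjusted p = 0.223) in miR-155-/- kidneys and fell in wild type kidneys at 72 h (-0.83 ± 0.11, adjusted p = 1.67e-06). Called higher in the 72 h interaction were Pole, the leading strand polymerase gene (1.21 ± 0.19, adjusted p = 0.00293), and Uhrf1, which maintains DNA methylation at forks (2.15 ± 0.41, adjusted p = 0.0229). Of the 22 E2F, MuvB and B-Myb regulator genes none was called in the 72 h interaction, and 3 rose and 9 fell in miR-155-/- kidneys, and 2 rose and 6 fell in wild type kidneys, at 72 h. Of 13 tested G1 cyclin, kinase and inhibitor genes 6 rose and 0 fell in miR-155-/- kidneys, and 2 rose and 1 fell in wild type kidneys, at 72 h.

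Markers of cells that might divide were measured beside the members. For every 72 h count of markers below, 17.7% of all features rose and 17.5% fell in miR-155-/- kidneys. In wild type kidneys 12.5% of all features rose and 12.8% fell. Of 14 macrophage and monocyte markers tested, 1 rose and 4 fell in miR-155-/- kidneys and 10 fell in wild type kidneys at 72 h, with summed levels of 14445 to 18919 in miR-155-/- and 11279 to 15789 in wild type kidneys. Cd68 was not tested. Of 14 fibroblast and matrix markers 2 rose and 2 fell in miR-155-/- kidneys and 11 fell in wild type kidneys, with sums of 15399 to 30894 in miR-155-/- and 10746 to 15780 in wild type kidneys. S100a4 (1.59 ± 0.25, adjusted p = 0.00293) and Vim (1.31 ± 0.28, adjusted p = 0.0435) were called higher in the 72 h interaction. Of 8 neutrophil markers tested, with Ly6g and Ngp not tested, 3 rose in miR-155-/- kidneys and 0 changed in wild type kidneys, with sums of 2118 to 6339 in miR-155-/- and 1917 to 3026 in wild type kidneys. S100a8 and S100a9 were called in the interaction.

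The sums of 10 lymphocyte markers, with Cd79a and Ms4a1 too dim to test, ranged over 2535 to 3463 in miR-155-/- and 2622 to 3792 in wild type kidneys at 72 h, and 4 fell in miR-155-/- and 3 in wild type kidneys. Of 9 red cell and erythroid markers 6 fell in miR-155-/- kidneys and 7 fell and 1 rose in wild type kidneys at 72 h, with sums of 1708 to 3130 in miR-155-/- and 1659 to 2619 in wild type kidneys. Of 11 endothelial markers 3 fell in miR-155-/- and 1 in wild type kidneys, with sums of 14614 to 25118 in miR-155-/- and 16565 to 22112 in wild type kidneys. Of the 10 kidney markers 6 fell in miR-155-/- and 8 in wild type kidneys at 24 h (median log2 differences -1.48 and -1.55), where 22.5% and 17.6% of all features fell. At 72 h 7 kidney markers fell and 1 rose in miR-155-/- kidneys and 4 fell and 1 rose in wild type kidneys. Their sums at 72 h ranged over 305325 to 436417 in miR-155-/- and 441379.5 to 487184 in wild type kidneys, against 528048.5 to 775972 in saline miR-155-/- and 620001 to 713471 in saline wild type kidneys, so that every 72 h array lay below every saline array of its genotype. The part of any of these cells in the members' differences was not tested. The tubule injury marker Havcr1, named after its values were seen, read 23082, 17039.9, 19895 and 12907 in miR-155-/- kidneys at 72 h and 3004, 7049, 8351 and 9815 in wild type kidneys at 72 h. Lcn2, a second injury marker, read 32964, 25108, 33566 and 29218 in miR-155-/- kidneys and 9859.9, 19418, 15061 and 19387 in wild type kidneys at 72 h. Within the miR-155-/- group array 4 was the lowest for Havcr1 and array 2 the lowest for Lcn2.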

How the data were processed

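RNA of 32 whole kidneys, described as having an average RIN of 8.5, was hybridised to 1-colour Agilent arrays, 4 mice in each of 8 groups, and the labels state that the samples were independent animals. The authors deposited Feature Extraction output (version 10.7.3.1, protocol GE1_107_Sep09, annotation build mm9, per the file headers), and the intensity used was the processed signal, background-corrected by that software. The authors also deposited a value table of intensity that equals the processed signal times 1 factor per array, with the 75th percentile at 999 to 1000, and it served as an alternative. Control spots and outlier-flagged spots were left out, log2 values of the deposited signal were centred on each array's 75th percentile, and spots of a probe were averaged.

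Of 39429 probes, 27234 had 1 gene symbol through their RefSeq accession, none had several and 12195 had none. The brightest probe stood for a gene. To be tested, a gene needed 1 group or more with all 4 arrays well above background, and 3 or more values in every group, which left 23743. limma 3.58.1 (R 4.3.3; lmFit, contrasts and eBayes with a trend) was fitted to all 8 groups at once, and 17 comparisons were adjusted by Benjamini-Hochberg over all genes tested, with a threshold of 0.05. Standard errors are limma's, with n = 4 per group. Python 3.11.15, numpy 2.4.6, pandas 2.3.3 and matplotlib 3.10.9 did the rest, and the fit was tested on simulated data.

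The members and gene lists were chosen with earlier results of these data known. Values on every array are given for the member of each role with the highest mean level, the member of each role with the smallest adjusted p after cisplatin, and any member called between genotypes or in an interaction. Of each list up to 4 called genes with the smallest adjusted p are named, and Cdkn1a, Ccnd1, Ccng1, Pcna and Mcm6 serve as context. Alternatives were normexp (offset 50), applied to the median signal because the files hold no mean signal, quantile normalisation, other filters, the mean over probes, slide, scan day or replicate number as a block, and leaving out arrays. Replicate numbers did not pair the arrays: the correlation of deviations averaged -0.004 over 112 same-numbered pairs of arrays. The number of arrays limits the precision.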

Additional observations from a re-analysis of the deposited data

Results flagged for a closer look

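Among the members given on every array and the array medians, 160 groups of 4 arrays were searched for an array whose gap to its nearest neighbour, as a share of the group's range, exceeded Dixon's 95% critical value, which chance gives in about 1 of 20 groups. This held in 18 groups. Array 4 of the miR-155-/- 72 h group was the lowest in 7 of them. It read 59.4 for Ccna2 against 121 to 129 on the other 3 arrays, 189 for Birc5 against 452 to 524, and 79.4 for Plk1 against 152 to 167. It also read 277 for Cdc20 against 481 to 539, 104 for Mki67 against 313 to 328, and 93.8 for Ncaph against 219 to 242. Its member median was -0.359 on the log2 scale, against 0.527 to 0.632 on the others.

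The miR-155-/- arrays that lay apart in the principal components also stood out here. Array 3 at 24 h read 131 for Ect2 against 380 to 426, 232 for Hmmr against 150 to 156 and 152 for Mki67 against 82.1 to 88.1, and array 3 at 48 h read 853 for Cdc20 against 363 to 393 and 141 for Ccnb2 against 110 to 112. Saline miR-155-/- array 3, the array with the most outlier-flagged spots, read 16.6 for Smc2 against 260 to 295. Wild type array 3 at 24 h was low for Ccnb2 (133 against 187 to 194), Ube2c (37.3 against 51.5 to 52.4) and Top2a (18 against 28 to 29.8). Wild type array 1 at 48 h was high for Ccna2 (73.8 against 45.4 to 48.4), and wild type array 4 at 72 h was high for Mad2l1 (434 against 364 to 375).

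A difference between the genotypes in the 72 h response passed limma's interaction test for 8 members, with log2 differences of responses (miR-155-/- minus wild type) of 2.11 for Ccna2, 1.88 for Ccnb1, 2.37 for Tpx2, 1.69 for Kif20a, 1.92 for Anln, 2.24 for Mki67, 2.70 for Top2a and 1.62 for Ncaph. The second, dimmer Tpx2 probe gave 0.55.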

How the results depend on the processing

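The counts of called members held within 1.5 times under the authors' deposited value table, which changed none of the 110 member calls, and under the stricter filter, the mean over probes and scan day as a block. With normexp the counts were 2, 3 and 6 at 24, 48 and 72 h in miR-155-/- kidneys, 2, 2 and 5 in wild type kidneys, and 0 between genotypes at 72 h, in the 72 h interaction and in the steps between times that had calls. Calls over all genes fell with it too. Under normexp 5 calls changed sign without passing the test, to 0.23 (Kif11) and 0.0097 (Foxm1) in wild type kidneys at 24 h and to 0.32 (Kif4), 0.42 (Kif11) and 0.20 (Racgap1) in miR-155-/- kidneys at 48 h. The mean over probes gave Mad2l1 -0.074 and -0.19 in wild type kidneys at 48 and 72 h. The causes were not tested.

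Without the filter on dim probes the 72 h interaction had 5 calls. The slide as a block gave 8 between genotypes at 72 h, with 259 calls over all features against 171. The step between 24 and 48 h in miR-155-/- kidneys had 0 calls under quantile normalisation, no filter, the slide block or the replicate block. The other alternatives below were chosen after seeing the data. Leaving out the 2 miR-155-/- arrays that stand apart gave 14 between genotypes at 72 h, 20 in the interaction, 2 in each step between 24 and 48 h and 7 between 48 and 72 h in miR-155-/- kidneys. Calls over all features rose with it, from 171 to 1077 between genotypes at 72 h and from 50 to 391 in the interaction. Neither array is in a group of these 72 h comparisons, and the member medians there stayed at 0.74 and 1.38. Leaving out miR-155-/- 72 h array 4 and wild type saline array 4 gave 20 in miR-155-/- kidneys at 72 h, 18 between genotypes, 17 in the interaction and 17 between 48 and 72 h. Over all features it gave 8023, 320, 110 and 1063 calls in these comparisons, against 8364, 171, 50 and 1483.

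Leaving out 1 array at a time gave 9 to 12, 5 to 12 and 6 to 16 calls in miR-155-/- kidneys at 24, 48 and 72 h, and 11 to 18, 17 to 22 and 19 to 23 in wild type kidneys. It gave 0 to 18 between genotypes at 72 h, 1 to 20 in the interaction, 0 to 1 in each step between 24 and 48 h and 2 to 17 between 48 and 72 h in miR-155-/- kidneys. Of the 110 member calls 66 held with every array left out in turn, among them Ccna2 in the interaction. With the replicate number as a block the 72 h interaction had 5 calls, without Kif20a, Mki67 and Tpx2 (adjusted p = 0.0761, 0.0521 and 0.068), and 104 of 110 calls held. The comparisons with 0 calls kept 0 under the alternatives run on them.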
